A study of Mus musculus with 2 samples.

Results

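Inside the transcribed bodies of genes, some stretches of open chromatin lie directly on protein-coding sequence, away from any promoter. In DNase-seq data from 2 replicates of the mouse cell line MN1, 1100 such sites were found among 125221 regions that both replicates shared on the autosomes. DNase-seq maps DNase I hypersensitive sites, where chromatin is open enough for an added nuclease to reach and cut the DNA, and the deposited lists give each site as a peak of 150 bp. A site was counted here when peaks of both replicates overlapped by at least 1 bp, the centre of the merged region lay in a coding segment (CDS) of a protein-coding gene in GENCODE M21, and no annotated transcription start site (TSS) lay within 2.5 kb. MN1 is described in the labels as an immortalized line of strain B6NCrl, with no tissue named. Both libraries are biological replicates, and both cultures had received methyltrienolone, an androgen made synthetically, at 10 nM. They form 1 group of 2 libraries with no untreated library analysed here, so every value is a level in treated cells, and no test between conditions was possible. The count depended on the rule, and was 1673 with a TSS limit of 1 kb, 563 among the stronger 50% of peaks of each list, 1876 with replicate 1 alone and 1400 with replicate 2 alone. In a bulk library, a site open in fewer cells and a site less open in each cell cannot be told apart.

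A coding exon can carry 2 kinds of information at the same bases. Its codons specify the protein, and its DNA can also be bound by transcription factors, whose binding usually displaces or borders nucleosomes and so makes the site accessible to DNase I. Outside promoters, hypersensitive sites are commonly enhancers, or sites of CTCF, the zinc finger protein that with cohesin shapes chromatin loops.

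The sequences of 8 of the 1100 sites show how such motifs sit in codons. They are the 150 bp windows around the centres of sites that ranked first or second, by score in both lists, among those with a given motif wholly in coding sequence. The motifs are those of CTCF, AP-1, NFI, RFX, EBF and the androgen response element. The sequences are read from the mm10 genome (GRCm38) on the coding strand of the gene, 5′ to 3′, with the motif in capitals. The first pair holds CTCF motifs, in Inhbe (chr10:127350716-127350865, minus strand), which encodes an activin subunit, and in Srcin1 (chr11:97531816-97531965, minus strand), which encodes an inhibitor of SRC kinase signalling.
Inhbe: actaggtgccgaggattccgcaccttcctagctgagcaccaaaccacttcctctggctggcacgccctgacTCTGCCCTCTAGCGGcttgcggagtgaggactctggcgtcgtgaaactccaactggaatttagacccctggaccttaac
Srcin1: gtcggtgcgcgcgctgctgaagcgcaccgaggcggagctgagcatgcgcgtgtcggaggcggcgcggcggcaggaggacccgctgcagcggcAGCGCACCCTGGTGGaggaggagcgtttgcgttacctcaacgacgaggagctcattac
The next pair holds motifs of AP-1, the JUN and FOS dimer, in Fry (chr5:150466286-150466435, plus strand), which encodes a protein of cell shape and the cytoskeleton, and in the last coding exon of Zswim5 (chr4:116986746-116986895, plus strand).
Fry: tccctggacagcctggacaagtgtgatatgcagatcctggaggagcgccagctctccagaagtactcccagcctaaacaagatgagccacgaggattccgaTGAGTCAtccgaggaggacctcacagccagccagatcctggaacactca
Zswim5: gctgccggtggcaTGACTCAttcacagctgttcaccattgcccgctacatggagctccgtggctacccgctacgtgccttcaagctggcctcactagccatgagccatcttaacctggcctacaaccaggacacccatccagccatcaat
The others hold the palindrome of NFI factors in Il21r, the receptor of interleukin 21 (chr7:125632436-125632585, plus strand), that of RFX factors in Tenm2, a teneurin adhesion protein (chr11:36106686-36106835, minus strand), that of EBF factors in Stag1, a cohesin subunit (chr9:100951606-100951755, plus strand), and an androgen response element in Stil, a centriole duplication gene (chr4:115038356-115038505, plus strand).
Il21r: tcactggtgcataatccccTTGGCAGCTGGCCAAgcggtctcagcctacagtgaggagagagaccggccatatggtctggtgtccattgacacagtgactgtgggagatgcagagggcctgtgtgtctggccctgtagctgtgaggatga
Tenm2: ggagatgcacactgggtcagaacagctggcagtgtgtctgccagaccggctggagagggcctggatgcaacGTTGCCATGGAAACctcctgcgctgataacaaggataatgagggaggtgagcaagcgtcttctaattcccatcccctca
Stag1: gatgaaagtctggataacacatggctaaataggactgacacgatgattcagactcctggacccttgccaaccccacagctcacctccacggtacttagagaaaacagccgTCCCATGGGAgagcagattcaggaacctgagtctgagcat
Stil: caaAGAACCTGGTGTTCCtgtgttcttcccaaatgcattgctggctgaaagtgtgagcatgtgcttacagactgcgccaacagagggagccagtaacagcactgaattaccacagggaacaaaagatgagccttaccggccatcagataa
The window was wholly coding in 6 of them, all but Tenm2, with 117 coding bases, and Stag1, with 149. The NFI palindrome of Il21r had 0 mismatches, as did the EBF palindrome of Stag1. The RFX palindrome of Tenm2 and the CTCF motif of Srcin1 had 1 mismatch, and the element in Stil and the CTCF motif of Inhbe had 2, the most allowed.

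Scores of these 8 sites were high in both lists for most. The deposited score is a whole number from 1 to 150 of no stated meaning, and was used only as a rank within a list. The percentile of a site is the share of its list with a lower score, ties counted by their middle rank. Zswim5 scored 148 in replicate 1 and 124 in replicate 2 (percentiles 99.4 and 94.4), and Fry 136 and 131 (95.2 and 96.4). Srcin1 scored 137 and 121, Inhbe 132 and 124, and Tenm2 132 and 127. Stag1 scored 110 and 91, and Il21r 94 and 85. Stil, whose window also held a CTCF motif, scored 69 in replicate 1 and 86 in replicate 2 (63.9 and 78.8). It ranked 380 of 1100, the best rank of a site with an androgen response element wholly in coding sequence.

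Coding exons were denser in open sites than introns or intergenic DNA. Distal coding sequence on the autosomes spans 18.7 Mb and held 58.9 shared regions per Mb, against 45.2 per Mb in introns and 28.0 per Mb between genes, a ratio of 1.3 over introns and 2.10 over intergenic sequence. Untranslated and other exon sequence of protein-coding genes held 62.3 per Mb and exons of noncoding genes 60.5 per Mb, both close to the coding value. The bases of each class exclude assembly gaps only. Sequence where reads cannot be placed was not removed, and its part in these ratios was not tested. Coding sites made up 1.47% of the 74676 shared distal regions (95% Wilson interval 1.39% to 1.56%), while coding sequence made up 0.904% of the distal bases. Wilson intervals here cover counting error only, and regions of 1 pair of libraries are not replicates.

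**Figure D1:**
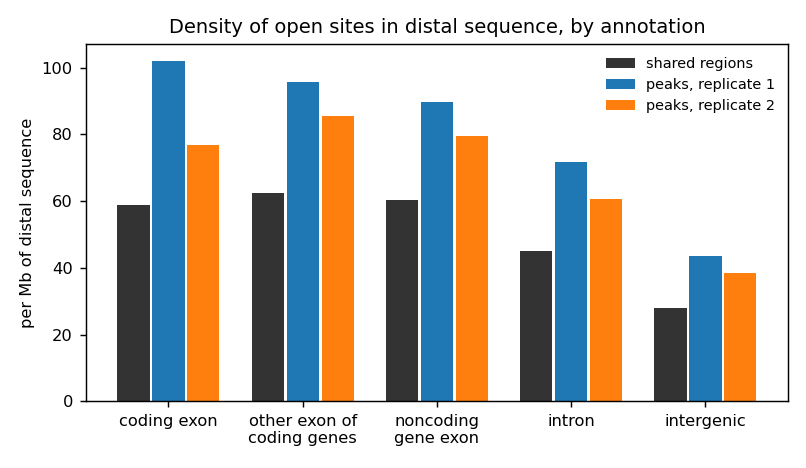
Sites per Mb of distal sequence (more than 2.5 kb from any TSS) in each annotation class, for shared regions and for the peaks of each replicate. Coding exons hold 58.9 shared regions per Mb against 45.2 in introns and 28.0 between genes, and replicate 1 has the higher density of peaks in every class.

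The order of coding exon, intron and intergenic sequence was the same in each replicate. Replicate 1 had 1904 peaks centred in distal coding sequence (102 per Mb), against 71.7 per Mb in introns and 43.5 between genes. Replicate 2 had 1437 (76.9 per Mb), against 60.7 and 38.5. A peak of the other replicate overlapped 59.0% of the coding peaks of replicate 1 (56.8% to 61.2%) and 77.5% of those of replicate 2 (75.2% to 79.5%). For intronic peaks these shares were 64.1% and 76.1%, so that the coding peaks of replicate 1 were met less often than its intronic peaks and those of replicate 2 were not. The 780 coding peaks of replicate 1 without a partner had a median percentile of 25.4 in their list, and the 324 of replicate 2 a median of 16.2. The lists held 189648 distinct peaks in replicate 1 and 170745 in replicate 2 on the main chromosomes. The depth behind each list is unknown. Of 15 pan-neuronal genes, among them Tubb3, Map2 and Snap25, 14 had an open promoter, against 60% of 21755 protein-coding genes, and Dcx had none.

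The sites were of middling strength among distal sites. Their median score was 66.0 in replicate 1 (quartiles 44 and 93) and 56.0 in replicate 2 (40 and 80), with extremes of 12 and 149 in the first list and 10 and 136 in the second. The lower of both percentiles had a median of 51.5, against 48.4 for shared intronic sites, 50.3 for intergenic sites and 68.0 for regions within 2.5 kb of a TSS. A place in the top 10% of both lists was held by 56 coding sites (5.09%, interval 3.94% to 6.55%), against 4.19% of intronic, 5.10% of intergenic and 22.3% of TSS-proximal regions. Scores of the coding sites ranked alike in both lists (Spearman's rho 0.820 across 1100 sites, which share their libraries), as did those of introns (0.797) and intergenic sites (0.832). The percentile was higher in replicate 1 at 681 sites and in replicate 2 at 419, and both percentiles differed by 8.64 points in the median site and by 60.8 at most. This tilt was not particular to coding sites, whose median percentiles were 61.8 in replicate 1 and 55.8 in replicate 2. The medians were 59.4 and 53.7 for shared intronic sites, 59.4 and 55.8 for intergenic and 74.0 and 71.0 for TSS-proximal ones. The hotspot around a site, the wider enriched interval that the authors deposited, had a median width of 356 bp in replicate 1 and 308 bp in replicate 2.

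**Figure D2:**
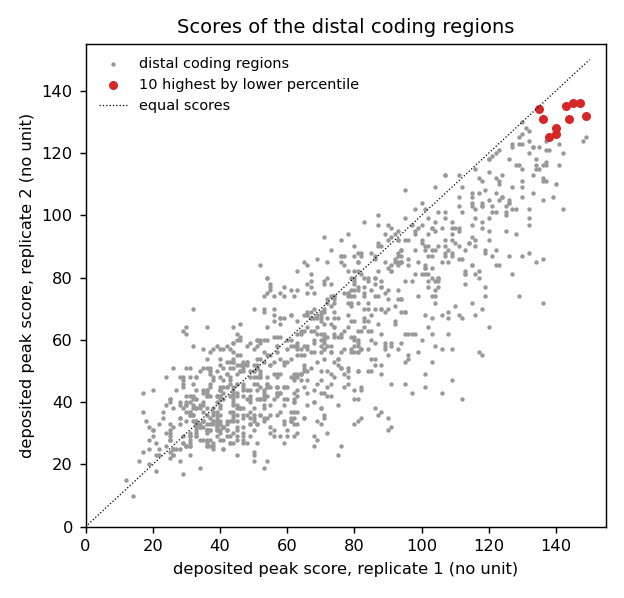
Deposited peak score of each of the 1100 distal coding regions in replicate 1 (x axis) and replicate 2 (y axis), with the 10 highest by the lower of both percentiles in red. Scores rise together (Spearman's rho 0.820), and the 10 highest lie at 135 or above in replicate 1 and 125 or above in replicate 2.

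The 10 highest sites each lay in a different gene. First came exon 32 of 35 coding exons of Sptbn4, the spectrin of axon initial segments (chr7:27361496-27361685, minus strand, scores 147 and 136), with 69.3% GC and hotspots of 972 and 866 bp. Next was the last coding exon of Pomc, the precursor of ACTH, melanocortins and beta-endorphin (chr12:3959916-3960085, 145 and 136), 5031 bp from the nearest TSS. This region was wholly coding, and the promoter of Pomc had no shared region. Slc4a5, a sodium bicarbonate cotransporter, scored 143 and 135 in coding exon 11 of 25 (chr6:83268256-83268405). Eng, the TGF-beta coreceptor endoglin, scored 149 and 132 (chr2:32680196-32680365), but its coding exon there is 55 bp long and 32.4% of the region was coding. Pan2, a subunit of a poly(A) deadenylase, scored 144 and 131, and Snapc1, a subunit of the complex that activates small nuclear RNA genes, 140 and 128. Fry, printed above, scored 136 and 131. Btd, the enzyme biotinidase, scored 140 and 126 in a region 20865 bp from any TSS, with hotspots of 2380 and 2327 bp. Fbxl22 (135 and 134) and Fbxo2 (138 and 125) encode F-box proteins of ubiquitin ligases, and their sites held 75.3% and 72% GC. None of the 10 had a CTCF motif in its window, against 19.6% of all 1100 sites and 18.2% of the strongest 110. With 10 sites, this count does not show that strong sites lack the motif. Of the 10, Sptbn4, Pomc and Fry had any of the 11 motifs searched, while 613 of all 1100 sites had none. The host promoter was open in all but Pomc and Eng, and over all sites it was open at 80.5%.

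Most sites lay in internal exons, and last coding exons were the denser. Place was taken in the transcript with the longest coding sequence of each gene, which held 1071 of the sites and 18.4 Mb of distal coding sequence, or 58.2 sites per Mb. The other 29 sites were coding only in other transcripts. Internal coding exons held 762 sites (71.1%, and 74.6% of these bases), last coding exons 257 (24.0%, interval 21.5% to 26.6%, against 19.3% of bases), first coding exons 36 and single-exon coding sequences 16. Per Mb, last coding exons held 72.5 sites, first ones 65.6 and internal ones 55.5. The share of sites in first coding exons was 3.36% (interval 2.44% to 4.62%), an interval that holds their 2.98% of bases. In steps of 20% along the coding sequence from the start codon, the density was 51.8, 53.5, 48.2, 62.1 and 71.5 per Mb, highest in the last step. Exons of at least 1 kb held 44.6 per Mb, against 59.4 in those below 150 bp and 61.7 in those between. A splice site lay under 75 bp from the centre at 657 sites (61.3%, interval 58.4% to 64.2%), and 63.4% of the bases lie that close, a share inside that interval. Of all 1100 sites, the merged region crossed a splice site at 725 sites and was wholly coding at 315 (28.6%). Of the 822 sites in genes with several coding transcripts, 306 (37.2%) were coding in all of them. The same share over all distal coding sequence was not counted, so this value describes the annotation as well as the sites.

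**Figure D3:**
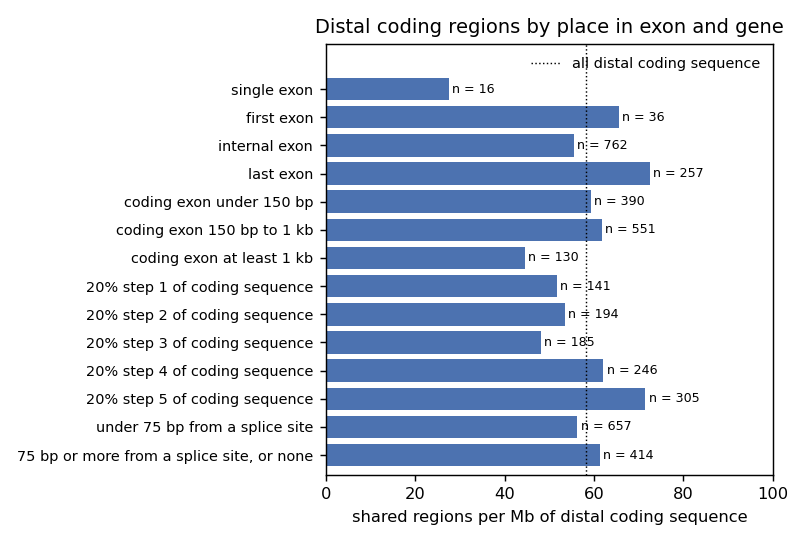
Shared regions per Mb of distal coding sequence by type and length of the coding exon, by 20% step of the coding sequence (1 is nearest the start codon) and by distance to a splice site, in the longest coding transcript of each gene, with the number of regions beside each bar. Last coding exons (72.5 per Mb), first coding exons (65.6) and the last step (71.5) lie above the value of all these bases (58.2, dotted). Single-exon coding sequences (27.5) lie below it.

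The distance to the nearest TSS had a median of 7254 bp, with quartiles of 4312 and 12793 bp. It was at most 5 kb at 365 sites and over 50 kb at 23. The farthest were in Dpyd, the enzyme that breaks down pyrimidines (207293 bp, scores 42 and 31), Myo16, an unconventional myosin (202129 bp, 36 and 31), Efna5, an ephrin ligand (150341 bp, 127 and 102), and Ksr2, a scaffold of RAF and MEK signalling (109581 bp, 53 and 74). The sites in Dpyd and Myo16 held RFX motifs, and those in Efna5 and Ksr2 AP-1 motifs. Just inside the limit lay sites in Slc28a3 (2506 bp from a TSS, scores 28 and 40) and Pex19 (2508 bp, 93 and 84). Just outside it lay coding sites in 4933407L21Rik (2495 bp, 30 and 37) and Tesk1 (2491 bp, 66 and 47).

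The windows were richer in G and C than the rest of coding sequence. Their median GC content was 55.3% (quartiles 50.7% and 60%), against 50.4% in distal coding sequence outside all peaks. Intronic and intergenic sites had a median of 50% each, against 42.0% and 40.7% outside peaks in those classes. The CpG dinucleotide, observed over expected from base content, had a median of 0.343 in coding windows and 0.195 in intronic ones. Coding sequence outside peaks, pooled into 1 ratio, had 0.394. A pooled ratio is unlike a median over windows that can reach beyond the exon, so these values do not rank sites against other coding sequence. At 171 sites (15.5%) this ratio was above 0.6, a usual limit for CpG islands. These CpG-rich sites had median scores of 80 and 67, against 64 and 54 at the other 929, and 12.9% of them (interval 8.65% to 18.7%) were in the top 10% of both lists, against 3.66% (2.63% to 5.07%). Their median distance from a TSS was 6585 bp, against 7318 bp for the others.

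CTCF motifs, with 2 mismatches allowed, were the most frequent of 11 motifs in the coding windows. AP-1 motifs were rarer there than in introns. A CTCF motif was found in 216 windows (19.6%, interval 17.4% to 22.1%), against 18.4% of all shared distal regions, 16.8% of intronic and 20% of intergenic ones. With 1 mismatch fewer allowed, the coding share was 9.91%, near the 9.55% of AP-1 motifs, which were allowed 0. The lead of CTCF thus depends on the mismatches allowed. The coding share with 2 mismatches was thus near that of distal sites in general. The 216 sites with the motif had a median lower percentile of 58.8, against 49.4 for the 884 without it, with median scores of 68.0 in both lists against 66.0 and 54.0. Windows centred in an exon can reach beyond it, and 185 CTCF matches in them lay wholly in distal coding sequence. Per Mb of coding sequence, CTCF matches numbered 1399 inside the windows and 204 outside all peaks, a ratio of 6.87. That ratio was 9.96 in introns, where sequence outside peaks held 118 matches per Mb, and 14.0 between genes, where it held 101. Coding sequence outside peaks thus matched the CTCF pattern more often per Mb than the other 2 classes.

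An AP-1 motif, TGACTCA on either strand, was found in 105 windows (9.55%, interval 7.95% to 11.4%), against 14.5% of all shared distal regions, 15.0% of intronic and 14.1% of intergenic ones. Since windows can reach into flanking sequence, not all these motifs were coding, and 77 matches lay wholly in distal coding sequence. Coding sequence as a whole also held fewer AP-1 matches, with 111 per Mb outside peaks against 163 in introns, and inside the coding windows there were 582 per Mb against 1088 in introns. The ratio of inside to outside was 5.23 in coding sequence and 6.69 in introns. In the strongest 10% of sites of each class, AP-1 motifs were in 9.09% of 110 coding sites (5.01% to 15.9%), 21% of intronic and 18.1% of intergenic sites.

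Of the other motifs, NFI palindromes (TTGGC and GCCAA 5 bases apart, 1 mismatch allowed) were in 38 coding windows (3.45%, against 3.31% of all distal regions). They were 11.4 times as dense inside as outside peaks in coding sequence and 12.5 times in introns. RFX palindromes (GTTGCC and GGCAAC 2 bases apart, 1 mismatch) were in 9 (0.818%, interval 0.431% to 1.55%, against 0.509%). EBF palindromes (TCCC and GGGA 2 bases apart) were in 14 (1.27%, interval 0.760% to 2.12%, against 2.21%), with an inside to outside ratio of 3.12 in coding sequence and 9.21 in introns. The ratio in coding sequence rests on 10 matches. The androgen response element (AGAACA and TGTTCT 3 bases apart, 2 mismatches), the palindrome that androgen and glucocorticoid receptors bind, was in 30 (2.73%, interval 1.92% to 3.87%, against 3.48%). It was 2.45 times as dense inside as outside peaks in coding sequence and 2.49 times in introns. These 30 sites were weak in the list of replicate 1, with a median percentile of 40.1 there and 51.4 in replicate 2, while the medians of the 1070 without the element were 63.2 and 56.9. The 14 sites with an EBF palindrome stood the other way, at 73.1 and 47.3. The lists differ in length, so these percentiles describe each list and show no change between them. The labels name sequencing instruments for replicate 1 and none for replicate 2, and the part of a sequencing batch in such differences cannot be told apart from the replicate. The NEUROD-type E-box CAGATGG was in 88 windows (8.0%, interval 6.54% to 9.75%), near the 7.30% of intronic and 6.87% of intergenic regions. CRE sites (TGACGTCA) were in 10 (0.909%, against 0.391% of intronic regions) and SP/KLF boxes (GGGCGGGG) in 21 (1.91%, against 1.18%). ETS sites (CCGGAAGT) were in 7 (0.636%, against 0.253%). NRF1 palindromes were in 14 (1.27%, interval 0.760% to 2.12%), above the 0.284% of intronic and 0.479% of intergenic regions. Outside peaks, NRF1 matches were also denser in coding sequence (19.1 per Mb) than in introns (9.72), as were CRE and ETS matches. The 14 NRF1 sites had a median GC content of 71.3% and a median lower percentile of 74.3. All 11 motifs were sought on both strands, and matches of different motifs could overlap. None was found in 613 windows. A match is a description of the letters and does not show binding.

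**Figure D4:**
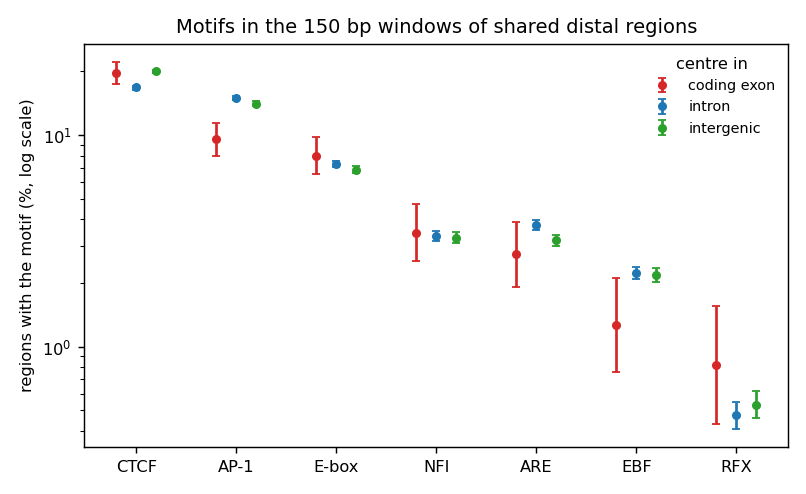
Share of shared distal regions with a motif in the 150 bp window (log scale), for centres in coding exons, introns and intergenic sequence, with 95% Wilson intervals. CTCF is found in 19.6% of coding windows, near the other classes, and AP-1 in 9.55%, below 15.0% of introns and 14.1% of intergenic regions.

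The reading frame limits where an AP-1 motif can lie. Read on the coding strand, the motif is either TGACTCA or TGAGTCA, both of which begin with TGA, a stop codon when in frame. Of 76 AP-1 matches inside the coding windows with an unbroken frame, 0 had their first base at codon position 1, 31 at position 2 and 45 at position 3 (59.2%, interval 48.0% to 69.6%). Of 1982 matches in distal coding sequence outside peaks, 0, 871 and 1111 (56.1%) were at these positions. A count of 0 at position 1 follows from the genetic code and serves as a check of the frames. The motif in Fry begins at codon position 3 and that in Zswim5 at position 2. The orientation TGACTCA on the coding strand made up 63.2% of the matches inside (51.9% to 73.1%) and 57.0% of those outside. For CTCF, 178 matches inside were spread over positions 1, 2 and 3 as 53, 61 and 64. Of them 42.1% read as the motif on the coding strand (35.1% to 49.5%), against 46.7% of 3669 outside. The near-even totals pool both orientations, and each orientation was uneven between positions. Inside, matches that read as the motif on the coding strand numbered 31, 8 and 36, and the others 22, 53 and 28. Outside peaks these counts were 626, 320 and 769, and 483, 965 and 506. For both motifs the positions inside the sites were spread much as in other coding sequence, with overlapping intervals.

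**Figure D5:**
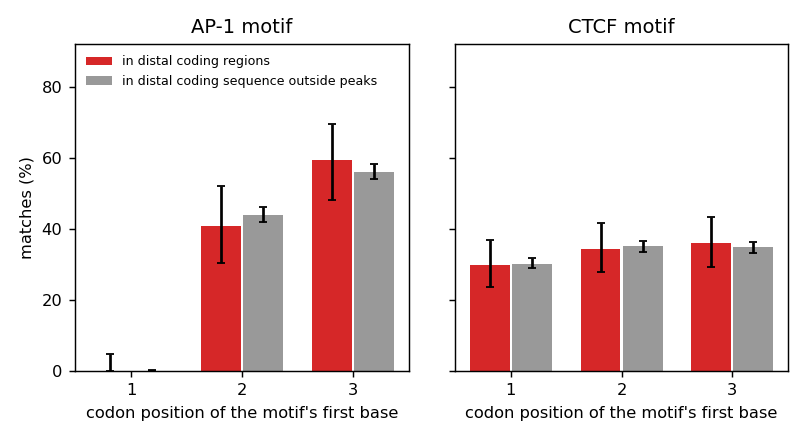
Codon position of the first base, on the coding strand, of AP-1 and CTCF matches in distal coding regions (red) and in distal coding sequence outside peaks (grey), as a share of matches with 95% Wilson intervals. AP-1 matches are absent at position 1, where they would make a stop codon. The shares inside and outside peaks have overlapping intervals at every position. Both orientations of a motif are pooled, and CTCF matches of each orientation alone are uneven between positions.

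The 1100 sites fell in 959 genes, most of them with 1 site each. Of 15146 genes with distal coding sequence on the autosomes, 6.33% held a site. Hosts had 1563 bp of distal coding sequence in the median, against 864 bp over all these genes. Of the hosts, 772 (80.5%, interval 77.9% to 82.9%) had an open promoter, that is, a TSS with a shared region at most 1 kb away, against 66.2% of all genes with distal coding sequence. Per Mb of distal coding sequence, genes with an open promoter held 71.4 sites and genes without one 33.7. The sites themselves ranked alike in both, with a median lower percentile of 51.5 and 50.5. In all, 215 sites lay in genes without an open promoter.

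Among the hosts, 844 had 1 site, 97 had 2, 11 had 3, 6 had 4 and 1 had 5. The gene with 5 was Tnxb, the extracellular matrix protein tenascin-X, whose promoter was not open (scores 32 to 77 in replicate 1 and 36 to 75 in replicate 2, over chr17:34682016-34713245). Its strongest site was in coding exon 26 of 41 (77 and 75). Shank1, a scaffold of excitatory synapses, had 4 sites in its last 2 coding exons, all wholly coding, with scores of 94, 100, 64 and 97 in replicate 1 and 73, 91, 49 and 79 in replicate 2. 4930407I10Rik, a gene without an open promoter, had 4 within 1 exon of 4326 coding bases, of which the site with a CTCF motif was the strongest (chr15:82065636-82065805, scores 120 and 114). Notch3, a receptor of cell-to-cell signalling, had 3 of its 4 sites in the last coding exon, with scores of 67, 45 and 44 in replicate 1 and 67, 32 and 37 in replicate 2. Mki67, the proliferation marker Ki-67, had 4 in its coding exon of 6836 bp (53 to 88 in replicate 1 and 37 to 57 in replicate 2), and 3 of them held AP-1 motifs. Herc1, a giant ubiquitin ligase, had 4, and 3 of these scored 34 or less in both lists. Syne1, a nesprin, also had 4. Sites of 1 gene share an exon or hotspot in several of these cases and are not independent.

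The share of genes with a site differed between gene groups, and the density per Mb is given beside it because long coding sequence can hold more sites. Of all genes with distal coding sequence 6.33% had a site, and together they held 58.6 sites per Mb. Sites were found in 13 of 52 chromatin regulator genes (25%, interval 15.2% to 38.2%), with 17 sites or 88.5 per Mb. All 52 had an open promoter, and genes with an open promoter in general held 71.4 per Mb. Ep300, a histone acetyltransferase, had 2 in its last coding exon, with scores of 124 and 106 at the stronger (chr15:81650196-81650345) and 105 and 77 at the other. Kmt2d, a histone methyltransferase, had 2 (103 and 53 at the stronger), and Prr12 had 3, of which none scored above 53. Among 32 cytoskeletal linker genes 7 held sites (21.9%, interval 11% to 38.8%), but their 40.1 per Mb was below the 58.6 of all genes. Syne1, a giant nesprin of the nuclear envelope, had 4 (131 and 128 at the strongest, in coding exon 54 of 145, chr10:5289456-5289605). Dst, a spectraplakin, had 3 (100 and 92 at the strongest), and Sptbn4 had a weak site beside the one above (25 and 31). Among 39 large adhesion and signalling receptor genes 6 held sites (15.4%, interval 7.25% to 29.7%, 75 per Mb). Besides Notch3, these included Dscam, a neuronal adhesion molecule, with 2 (93 and 95, 74 and 72). Of 101 kinesin, dynein and myosin genes 14 held sites (13.9%, interval 8.44% to 21.9%), but their 43.2 per Mb was also below that of all genes. Among them were Myh14 with 3 sites (92 and 86 at the strongest) and Myh3 and Dnah2 with 2 each (86 and 78, and 80 and 66, at the stronger).

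Ion channel genes were close to genes in general, with 9 of 94 (9.57%, interval 5.12% to 17.2%, 55.2 per Mb). Scn8a, a sodium channel of the axon initial segment, scored 130 in both lists in coding exon 11 of 26 (chr15:100983856-100984005) and 34 and 32 in its last coding exon. Kcnh2, a potassium channel, scored 130 and 126 in coding exon 2, and Cacna1c, an L-type calcium channel, 122 and 89. Steroid receptor and cofactor genes had sites in 3 of 23 (13.0%, interval 4.54% to 32.1%, 80.4 per Mb), and the 6.33% of all genes lies inside that interval. Besides Ep300 these were Pias1, a SUMO ligase that binds nuclear receptors (chr9:62881956-62882145, 128 and 116), and Crebbp (70 and 47).

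Few sites were found in zinc finger, developmental factor and collagen genes, set against a share of 6.33% over all genes. Of 418 C2H2 zinc finger genes, which often carry their fingers in 1 long last exon, 15 held a site (3.59%, interval 2.19% to 5.84%), with 25.4 per Mb although 341 had an open promoter. Zscan10 scored 110 and 96 with a CTCF motif, Zbtb7a 98 and 102, and Zbtb40 had 2 sites (28 and 33, 51 and 27). Of 44 SOX, POU, FOX and PAX genes 1 held a site, Foxn2 (65 and 35), a share of 2.27% (interval 0.402% to 11.8%) and 22.7 sites per Mb. Of 42 collagen genes 1 did, Col17a1, with 2 sites (123 and 84, 103 and 80), a share of 2.38% (0.422% to 12.3%) and 14.3 per Mb. Both intervals hold the 6.33% of all genes, while that of the zinc finger genes lies below it. Of the 4 Hox genes with distal coding sequence by this rule, Hoxc9 held a site in its first coding exon (chr15:102981916-102982105, 108 and 89), and with 0.00132 Mb in these 4 genes a density says little. Of 49 clustered protocadherin genes with 0.0151 Mb of such sequence 0 held a site, which allows a share of up to 6.12% by the limit of 3 counts (7.27% by the Wilson interval). Of 86 olfactory receptor genes 0 did, which allows up to 3.49% (4.28%). How the reads of near-identical genes were placed is unknown, and values of such families are uncertain.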

How the data were processed

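Peaks and hotspots of 2 DNase-seq libraries were used, each set deposited for its own library and not pooled. The listing deposited with each library derives them from an mm10 alignment of that library and 1 further file. Which aligner and caller were used is not stated in these sources. The score of each peak, deposited by the authors, is a whole number of no stated meaning. For hotspots the authors deposited the −log10 of a q-value; only the intervals were used. Repeated peaks were counted once, and percentiles were taken over 21 main chromosomes. No peak ran past a chromosome end of the reference, GRCm38 (mm10). Printed coordinates count from 1.

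Each base was classed in the order coding, other exon of a protein-coding gene, noncoding exon, intron, intergenic. Exon numbers come from the longest coding transcript that holds the centre, and densities by place and reading frames from the longest of each gene. Motifs were sought on both strands in 150 bp around each centre; the CTCF pattern allowed 2 mismatches and the NRF1 palindrome 1. Wilson intervals are at 95%. No test was made, since there is 1 group. The 12 gene groups come from symbol patterns and short lists. Genes named were the 10 highest sites, the 6 genes with most sites (ties by shorter distal coding sequence, which left out Syne1), the 4 farthest sites, the best sites per motif, those beside the 2.5 kb limit and up to 3 genes per group. A gene that this rule names is not reported here. Members and lists were chosen with earlier results of these data known. The steps were tested on simulated data. Alternatives covered the replicates used, overlap, score, distance, the coding rule, gene models and motif search. Python 3.11.15, numpy 2.4.6, scipy 1.17.1 and matplotlib 3.10.9 were used.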

Additional observations from a re-analysis of the deposited data

Results flagged for a closer look

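The X chromosome, left out of all counts of sites above and used only for promoters of marker genes and for score percentiles, carried 13 shared distal coding regions, 16.1 per Mb of distal coding sequence, against a median of 55.6 per Mb over 19 autosomes. They are given because they lie outside the sites described, and the Y chromosome carried 0. The copy number of X in these cells was not tested.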

How the results depend on the processing

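With 1 replicate list used alone, the number of sites was 1400 to 1876, their share of distal regions 1.42% to 1.63%, the density over that of intergenic sequence 2.01 to 2.37, the median lower percentile 45.0 to 48.0, the median GC content 54.0% to 55.3%, the CTCF share 14.1% to 18.4%, the AP-1 share 8.71% to 9.91% and the share of hosts with an open promoter 80% to 82.8%. With the stronger 50% of peaks there were 563 sites, with a median lower percentile of 71.1, 56.7% GC, an AP-1 share of 10.7% and 77% of hosts with an open promoter. With a TSS limit of 1 kb there were 1673 sites, 1.87% of distal regions, with a median lower percentile of 53.7, an AP-1 share of 8.67% and 83.3% of hosts with an open promoter. With a limit of 5 kb the coding share was 1.21% and the AP-1 share 11%. Searching the whole region gave an AP-1 share of 10.5%, and 1 mismatch fewer a CTCF share of 9.91%. Leaving out sites near RefSeq TSSs too, an alternative chosen after seeing the data, left 1033 sites. The AP-1 share in coding sites stayed below the 15.0% of introns in each alternative, but the intronic share was not recomputed. No paired analysis was possible because both libraries are replicates of 1 group. Read depth is unknown, and with 2 libraries and no control, error between cultures cannot be estimated for single sites.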

Other observations

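The density of distal coding sites differed between autosomes, from 49.8 per Mb of distal coding sequence on chromosome 3 to 78.0 on chromosome 11 and 90.6 on chromosome 15. Chromosome 15 carried 70 sites in 0.772 Mb. Densities of other distal regions were not counted by chromosome, so these differences may not be particular to coding sites. The copy number of the autosomes was not tested.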
